A study of Rattus norvegicus with 8 samples.

Results

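The zinc finger genes described here are 32 genes whose symbols begin with Zfp, Zbtb or Klf and a number, out of 32623 Ensembl gene identifiers in a table of read counts from rat dorsal root ganglia (DRGs). Symbols beginning with Znf, Zscan or Zkscan were also searched for and none was found. A member needed at least 10 counts in at least 2 libraries, and all 32 genes of the symbol pattern met this and were also tested. The gene with the fewest reads was Zbtb49, with 117 to 340 counts per library, so none lay near that limit. The DRG of a spinal nerve holds the cell bodies of its sensory neurons, with satellite glia around them and Schwann cells along their axons. Adult Sprague-Dawley rats of each sex either had no surgery (naïve) or underwent chronic constriction injury (CCI), a loose ligation of the sciatic nerve that leaves the hind paw hypersensitive to touch. The ipsilateral L4-L6 DRGs of 1 rat made 1 library. Naïve and CCI rats of either sex made up 4 groups of 2 rats, and DRGs were collected on day 14 after CCI. The controls had no sham surgery, so incision, suture and nerve injury cannot be told apart, and the stage of the estrous cycle was not recorded. CCI rats were kept in the study only if their paw withdrawal threshold had dropped.

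Every member was chosen by its own values in these libraries, because symbols were available only for genes in lists that the study drew from the same counts. Of the 32 members, 20 stand in the study's lists of genes that differed between naïve males and naïve females, and 22 stand in its list of genes whose CCI response differed between the sexes. Both kinds of list hold 10 of them, the naïve lists alone hold 10 and the interaction list alone holds 12. The values in naïve rats, in each sex after CCI and in the interaction are therefore given as a description without p-values. Zinc finger genes outside these lists, among them other Krüppel-like factors, were not analysed here. Symbols were paired with 1961 identifiers, and 11.5% of the genes tested had one.

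A zinc finger is a short loop of protein held in shape by a zinc ion, and strings of such fingers read DNA sequence, with neighbouring fingers contacting neighbouring bases. Many of these genes encode a second domain that decides what happens once DNA is bound. KRAB domains recruit a silencing complex to chromatin, BTB domains pair proteins and recruit co-repressors, and SCAN domains pair proteins with each other. Krüppel-like factors bind GC-rich promoter sequences and act in differentiation and in the growth of axons. The symbols group proteins of more than 1 kind. Zfp36l1 encodes a protein whose fingers bind AU-rich stretches of messenger RNA and speed its decay, and Zfp598 encodes a ubiquitin ligase that marks stalled ribosomes. For these genes the label of a DNA-binding transcription factor does not hold.

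Total counts per library ranged from 39489103 to 60818457, and edgeR's filter on low counts left 16988 genes to test. Levels are given as CPM, counts scaled to a common library size by TMM, which compares libraries for 1 gene but not 1 gene with another, since transcript length was not used. The rats of a group differed beyond counting noise, with a chi-square per gene of 39.8 in naïve males and 13.2 to 26.0 in the other groups. The naïve males also differed in blood genes, whose summed level was 139.5 CPM in naïve male 1 and 1528 CPM in naïve male 2. An exact 2-sided test of a single gene cannot give a p under 0.333 for 2 rats against 2, or under 0.0286 for 4 against 4. The adjusted p-values below come from a model that shares the spread across genes.

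Most of the zinc finger genes had their highest level in naïve males. All reads counted on the members made up 0.125% and 0.114% of the library in naïve males 1 and 2. After CCI the share was 0.0719% and 0.0692% in males and 0.0750% and 0.0712% in females. Naïve females lay between, with 0.0824% and 0.0908%. Both naïve males lay above the other 6 libraries in 27 of the 32 members, a pattern that 19.5% of all genes tested showed and that the choice of members favours. The median member, on a log2 scale centred on each gene's mean over the 8 libraries, was at 0.57 and 0.42 in naïve males. The CCI males were at -0.23 and -0.25 and the CCI females at -0.17 and -0.19, with naïve females at -0.09 and 0.06. The median of all genes tested stayed between -0.02 and 0.00 in each library. The single highest library was naïve male 1 for 25 members, and between the naïve males 27 members were higher in replicate 1, by a median of 0.15 on the log2 scale. Neither count was made over all genes.

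**Figure D1:**
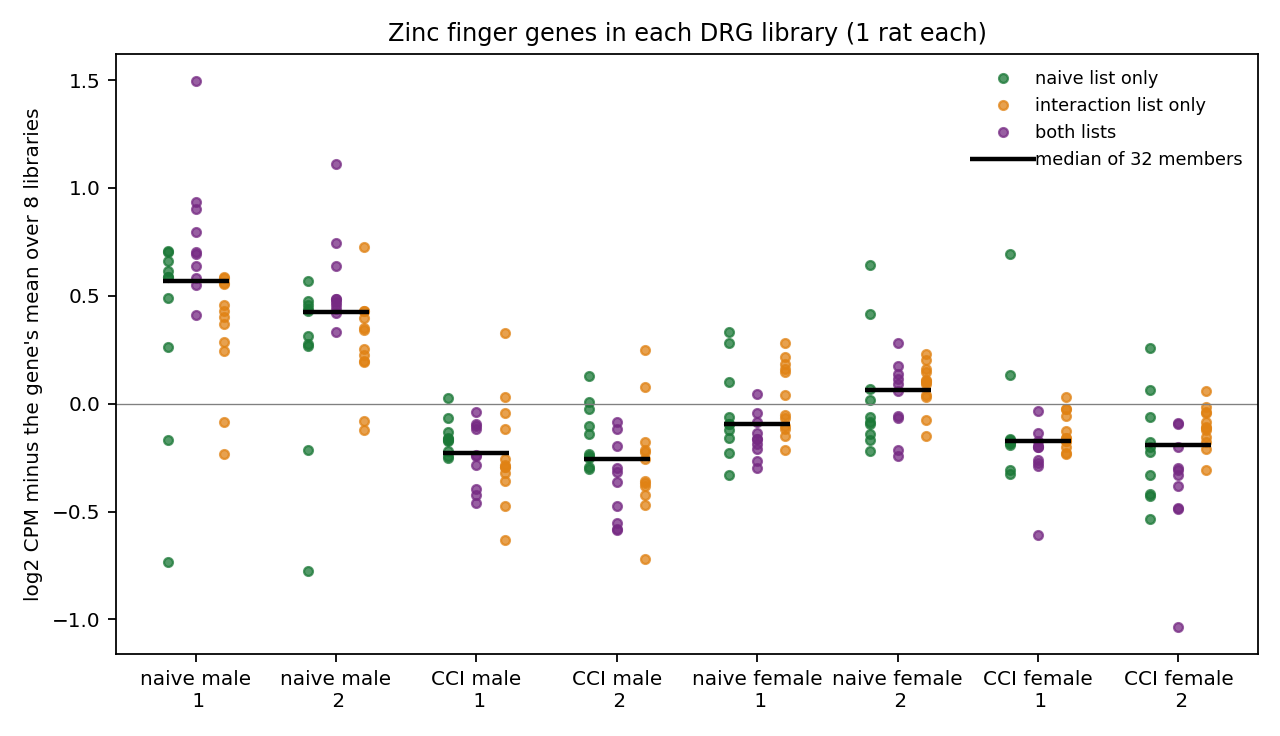
Each point is 1 of 32 zinc finger genes in 1 library, as log2 CPM minus that gene's mean over the 8 libraries, coloured by the study list that held its symbol, and black bars are medians of the 32 members. The medians of the naïve males, 0.57 and 0.42, lie above those of the other 6 libraries, which run from -0.25 to 0.06.

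Other gene lists also differed in level between the libraries. Of 28 listed nuclear transcripts that often retain introns, mostly of the splicing machinery such as Clk1 and Srsf5, 24 had a symbol. Their summed level was 5872 and 4786 CPM in naïve males and between 2343 and 3334 CPM in the other 6 libraries. The 7 named of 9 myelinating Schwann cell genes, among them genes of the myelin sheath, summed to 13349 and 10954 CPM in naïve males and to 3445 and 3294 CPM in CCI males. They summed to 9420 and 7656 CPM in naïve females and to 5503 and 4215 CPM in CCI females. The 6 named of 12 sensory neuron genes went the other way in their summed level, most of it from Nefh, Nefm and Nefl. It was 15432 and 17629 CPM in naïve males and 25375 and 25900 CPM in CCI males. The females had 18801 and 19403 CPM when naïve and 19606 and 23614 CPM after CCI. The 8 blood genes had a median log2FC of -2.41 after CCI over both sexes, and all 8 were called lower. In females all 8 were called lower, with a median of -3.14, and in males 0 were, with a median of -1.66. Their summed level in naïve male 1, 139.5 CPM, lay below the 276 and 247 CPM of the CCI males. The 5 named of 9 muscle genes were all called higher after CCI in males, with a median of 3.05, and had a median of -0.95 in females. The 2 named of 7 satellite glia genes summed to 269.9 and 235 CPM in naïve males, 143 and 145 CPM in CCI males, 236 and 228 CPM in naïve females, and 185 and 192 CPM in CCI females. The 2 named of 9 macrophage genes were not called over both sexes and had a median of 0.18. The part of these lists in the levels of the zinc finger genes was not tested. In whole ganglia, fewer cells of a type and less RNA per cell cannot be told apart.

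**Figure D2:**
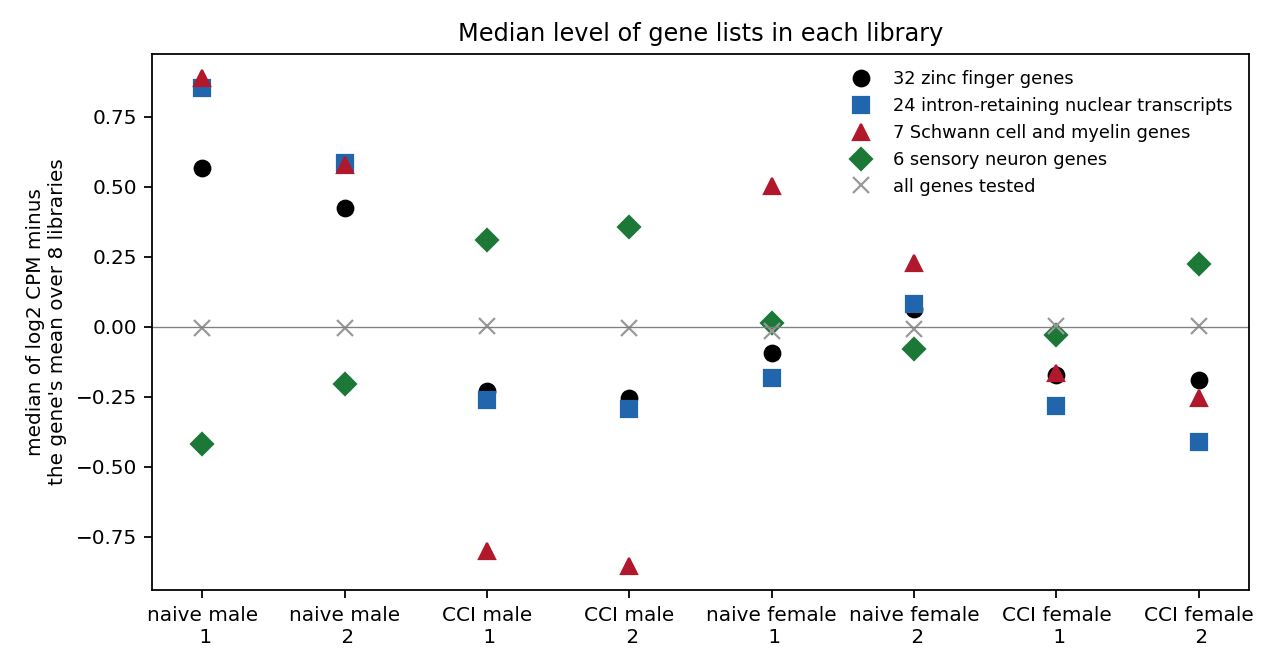
For each library the plot shows the median, over the named genes of a list, of log2 CPM minus the gene's mean over the 8 libraries. The 32 zinc finger genes and the 24 intron-retaining transcripts lie above 0.4 in both naïve males and at or below 0.08 elsewhere, the 6 neuron genes lie lowest in the naïve males, and the median of all genes tested lies near 0.

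The 10 members found in the naïve lists alone included all 4 Zbtb genes and the only Krüppel-like factor. Zbtb16, which encodes the BTB repressor PLZF, was 3.04 and 2.95 CPM in naïve males, 4.49 and 4.27 CPM in CCI males, 6.36 and 7.90 CPM in naïve females, and 8.19 and 6.04 CPM in CCI females. It was higher in every female than in every male. Its log2FC between naïve females and naïve males was 1.25 (SE 0.177). The KRAB gene Zfp472 was the other member listed as higher in naïve females, with 8.33 and 9.15 CPM there, 7.52 and 6.58 CPM in CCI females and 5.76 to 6.27 CPM in the 4 male libraries. No other member was higher in every female than in every male.

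The 8 other members of the naïve lists alone were listed as higher in naïve males. Zbtb49, whose product activates a cell cycle inhibitor gene, was 6.50 and 5.92 CPM in naïve males, 3.38 and 3.24 CPM in CCI males, 3.83 and 3.83 CPM in naïve females, and 3.54 and 2.99 CPM in CCI females. Zfp397, a SCAN gene, was 15.5 and 12.9 CPM in naïve males, 8.50 and 9.35 CPM in CCI males, 8.90 and 8.46 CPM in naïve females, and 8.48 and 6.55 CPM in CCI females. The naïve males stood apart in both genes. Among the other 6 libraries the naïve females of Zbtb49 lay above the CCI rats, and those of Zfp397 overlapped with them. Zbtb48, which encodes a protein that binds telomere repeats, was 9.69 and 8.71 CPM in naïve males, 5.64 and 5.18 CPM in CCI males, 6.79 and 5.93 CPM in naïve females, and 5.58 and 4.71 CPM in CCI females. Zbtb40 was 13.8 and 11.1 CPM in naïve males, 7.71 and 8.54 CPM in CCI males, 8.22 and 9.27 CPM in naïve females, and 8.04 and 8.11 CPM in CCI females. Klf13, which binds GC-rich promoters, was 10.1 and 10.1 CPM in naïve males, 8.05 and 9.22 CPM in CCI males, 6.70 and 7.66 CPM in naïve females, and 7.44 and 8.83 CPM in CCI females. For Klf13 the CCI rats of each sex lay between the naïve males and the lowest naïve female. The other members of this kind were Zfp57, which keeps DNA methylation at imprinted genes, Zfp653, whose product is a co-repressor of nuclear receptors, and Zfp362.

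Over all 32 members, 28 had a log2FC below 0 between the naïve sexes, that is lower values in females, and 50.8% of all genes did. The median was -0.51 over the members and -0.01 over all genes tested. None was called between the naïve sexes in the fit used here (adjusted p under 0.05 and absolute log2FC above 0.5), where 0.0706% of all genes were called. DESeq2 on the same libraries called 17 of them, 2 higher and 15 lower in females, which restates how the lists were drawn. Of the 16988 genes tested it called 268 higher and 728 lower.

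Whether nerve injury changed these genes in both sexes as a whole was asked by comparing the mean of the CCI groups with the mean of the naïve groups over all 8 libraries. This is the comparison that the lists used least. Its log2FC would be uncorrelated with both list contrasts if every group had the same spread between rats. Its p-values would even then rest on the spread between the same rats from which the lists were drawn. The naïve males enter all of these contrasts and were the most variable over all genes. Over the members, the SD of the replicate difference was largest in naïve females, at 0.190, and was 0.126 in naïve males. The adjusted p-values of the members are therefore not free of how the members were chosen. Of the 32 members, 12 were called lower after CCI, which is 37.5%, and 9.29% of all genes tested were called lower. No member was called higher, where 6.08% of all genes were, and 26 had an unadjusted p under 0.05, where 49.6% of all genes had. DESeq2 also called 12 lower and none higher, where 1434 of the 16988 genes were called lower and 944 higher. The log2FC was below 0 in 30 members, against 52% of all genes, and its median was -0.46, with a range from -1.32 to 0.27, against -0.02 for all genes. CCI and naïve libraries did not overlap in 16 members that were lower after CCI, where 13% of all genes had such an order.

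The other genes of the same lists give a closer background for this share. Of the 1889 other listed genes, 25.7% were called lower, and of the 1067 among them that were higher in naïve males than in naïve females 43.8% were. The median log2FC of those 1067 genes was -0.45. By list, 2 of the 10 members of the naïve lists alone were called lower, beside 40.2% of the other genes of those lists. In both kinds of list it was 6 of 10, beside 53.1%, and in the interaction list alone 4 of 12, beside 8.67%. The other genes of the interaction list alone had a median log2FC of 0.13 and the 12 members had -0.45. These differences in share were not tested.

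**Figure D3:**
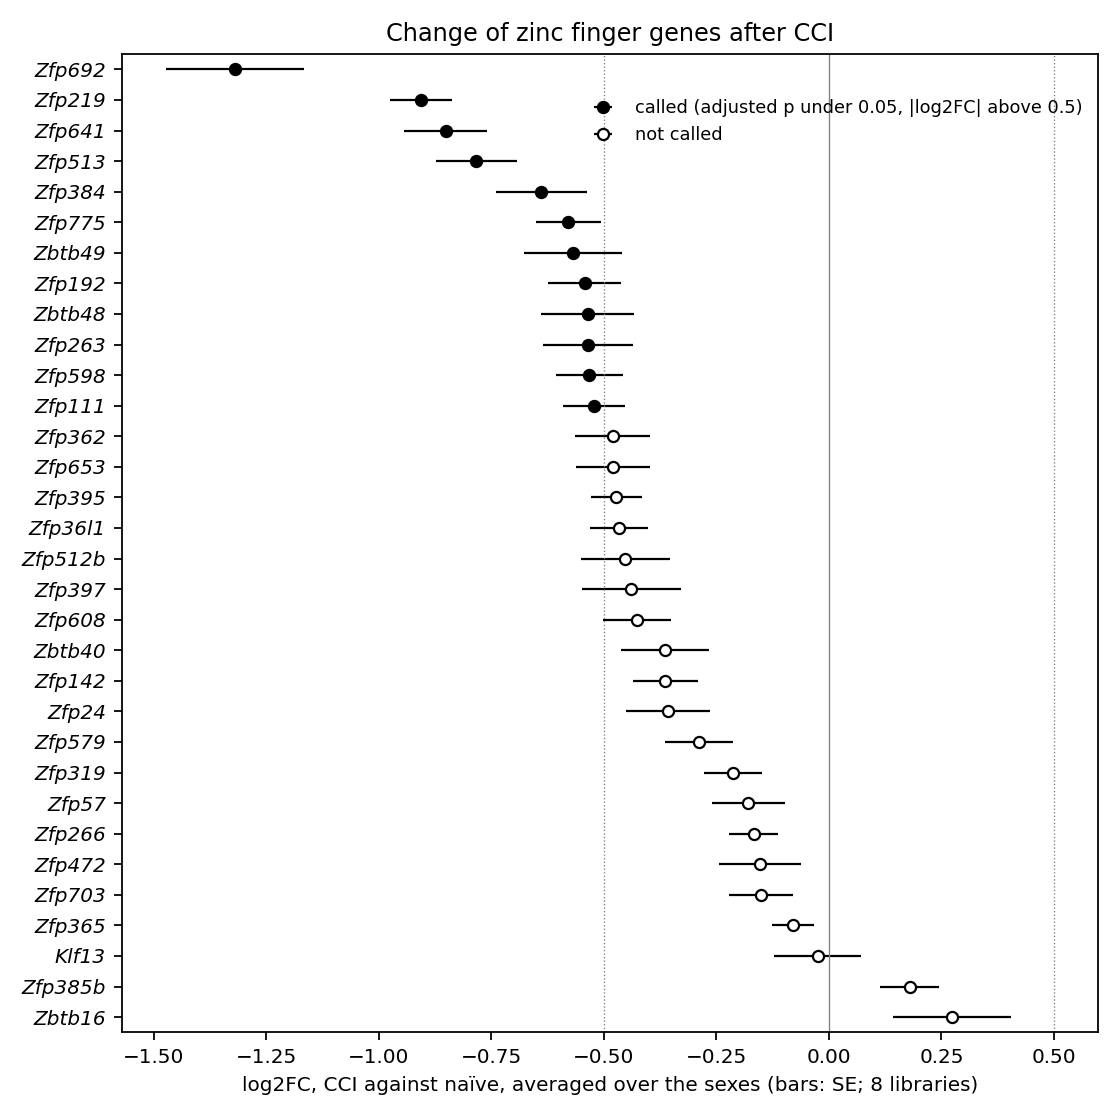
The log2FC of each zinc finger gene after CCI, averaged over the sexes from 8 libraries, is plotted with its SE, and filled points passed both thresholds. The 12 filled points run from -1.32 (Zfp692) to -0.52 (Zfp111), all below the dotted line at -0.5, and no point lies beyond the line at 0.5.

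Zfp692, whose product represses genes of glucose production, had the largest change. It was 48.5 and 37.2 CPM in naïve males, 12.9 and 11.7 CPM in CCI males, 14.3 and 20.9 CPM in naïve females, and 11.3 and 8.42 CPM in CCI females. The naïve libraries lay above the CCI libraries, and the naïve males lay far above the naïve females. The averaged log2FC was -1.32 (SE 0.154, adjusted p = 0.000685 by edgeR's quasi-likelihood test), and this was the only member called lower in females alone.

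Zfp219, which encodes a partner of Sox9 in cartilage, was 88.6 and 77.6 CPM in naïve males, 33.6 and 30.9 CPM in CCI males, 47.8 and 49.2 CPM in naïve females, and 37.9 and 33.1 CPM in CCI females. The averaged log2FC was -0.91 (SE 0.0689, adjusted p = 0.000199, edgeR). The naïve libraries of each sex lay above all CCI libraries without overlap.

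The KRAB gene Zfp641 was 7.86 and 8.82 CPM in naïve males, 3.44 and 3.24 CPM in CCI males, 6.07 and 6.26 CPM in naïve females, and 4.73 and 4.71 CPM in CCI females. Its averaged log2FC was -0.85 (SE 0.0922, adjusted p = 0.000535, edgeR). Here the naïve sexes lay closer together than in Zfp692 and the CCI males lay lowest. Zfp513 was 35.0 and 29.2 CPM in naïve males, 14.2 and 12.5 CPM in CCI males, 17.7 and 20.3 CPM in naïve females, and 16.3 and 14.4 CPM in CCI females. It had an averaged log2FC of -0.78 (SE 0.0900, adjusted p = 0.000656, edgeR), and its naïve and CCI libraries did not overlap.

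Zfp384, which encodes a nuclear matrix protein that also binds an adaptor of focal adhesions, was 54.5 and 43.6 CPM in naïve males, 25.8 and 25.5 CPM in CCI males, 28.6 and 34.6 CPM in naïve females, and 27.4 and 22.4 CPM in CCI females. The averaged log2FC was -0.64 (SE 0.102, adjusted p = 0.00229, edgeR). Among the females the groups were set apart by 28.6 against 27.4 CPM, so the gap between them was narrow. Zfp775 was 22.29 and 20.01 CPM in naïve males, 12.4 and 10.7 CPM in CCI males, 15.3 and 16.0 CPM in naïve females, and 12.7 and 12.8 CPM in CCI females, with an averaged log2FC of -0.58 (SE 0.0725, adjusted p = 0.000876, edgeR). All CCI libraries of Zfp775 lay below all naïve ones.

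The SCAN and KRAB gene Zfp192 was 49.3 and 46.1 CPM in naïve males, 27.9 and 25.6 CPM in CCI males, 29.4 and 37.2 CPM in naïve females, and 27.2 and 28.7 CPM in CCI females. Its averaged log2FC was -0.54 (SE 0.0805, adjusted p = 0.00171, edgeR). Zbtb49, with the levels given above, had an averaged log2FC of -0.57 (SE 0.109, adjusted p = 0.00492, edgeR). In both genes the naïve and CCI females lay close together without overlap, and the naïve males lay well above them. Zfp111, a KRAB gene, was 14.59 and 14.01 CPM in naïve males, 8.29 and 7.94 CPM in CCI males, 11.9 and 10.9 CPM in naïve females, and 9.54 and 9.88 CPM in CCI females. Its averaged log2FC was -0.52 (SE 0.0685, adjusted p = 0.00103, edgeR).

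The other called members were Zbtb48, Zfp263, a SCAN and KRAB gene, and Zfp598, with log2FCs between -0.54 and -0.53 that lay close to the threshold. Zbtb48 lost its call without naïve male 1, naïve female 1 or CCI female 2, Zfp263 without naïve male 1, CCI male 2 or CCI female 2, and Zfp598 without naïve male 1 or naïve female 2. Zfp192 lost its call without naïve female 2. In each case the log2FC was then between -0.50 and -0.45 and the adjusted p stayed under 0.05. Without naïve male 1 fewer members were called, and without naïve male 2 more were. The share over all genes was not counted in these fits.

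With no threshold on the size of the change, 25 of the 32 members were lower at an adjusted p under 0.05, against 19.7% of all genes. Beside the called ones these were Zfp36l1 at -0.47, Zfp395 at -0.47, Zfp24, a SCAN gene needed for myelination in the brain, at -0.36, and Zbtb40, Zfp142, Zfp266, Zfp319, Zfp362, Zfp397, Zfp512b, Zfp579, Zfp608 and Zfp653. Zfp57, Zfp365, Zfp472 and Zfp703 did not reach it and had log2FCs between -0.18 and -0.08. The largest value above 0 was that of Zbtb16, with a log2FC of 0.27 (SE 0.131, adjusted p = 0.135, edgeR). The next was Zfp385b at 0.18. Klf13 was at -0.02 (adjusted p = 0.865, edgeR), with a 95% interval from -0.25 to 0.20, so its level in CCI and naïve rats was not distinguishable in this fit.

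The comparison by sex is a description, since the interaction list was drawn from it. In males 24 members were called lower after CCI, where 12.5% of all genes were, and 1 member, Zbtb16, was called higher, where 9.05% were. In females 1 member, Zfp692, was called lower, where 2% of all genes were, and none was called higher, where 3.69% were. The median log2FC of the members was -0.72 in males and -0.22 in females, against -0.01 and -0.02 for all genes. Both comparisons with naïve rats of the same sex share no library, but the naïve males also enter the contrasts that chose the members. A lower log2FC in males than in females was found in 28 members, including all 12 called over both sexes. The median of the female minus the male log2FC was 0.52 over the members and 0.02 over all genes tested. The log2FC was below 0 in both sexes in 22 members, below 0 in males only in 6 and below 0 in females only in 4. The choice of members favours such orders, and their shares over all genes were not counted. Without CCI male 1, CCI male 2 or naïve male 1 fewer members were called in males. Each of these fits leaves 1 rat in a group, and the share over all genes was not counted in them.

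Among the genes of the interaction list alone, Zfp641, Zfp111 and Zfp775 had the largest interaction, with 0.93, 0.59 and 0.58 for the female minus the male log2FC. Among those in both lists Zfp692, Zfp219 and Zfp513 had the largest difference between the naïve sexes, with log2FCs of -1.28, -0.77 and -0.76. In these genes the naïve females lay closer to the CCI rats than the naïve males did. Of all members, 2 were called in the interaction test, Zfp513 and Zfp219, where 1.59% of all genes were. In the same contrast DESeq2 called 17 with a higher and 2 with a lower log2FC in females, where 820 and 798 of the 16988 genes were.

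A few members went the other way in males, most of all Zbtb16, with a log2FC of 0.55 there and levels given above. Zfp385b was 27.3 and 29.6 CPM in naïve males, 40.3 and 38.3 CPM in CCI males, 29.9 and 34.4 CPM in naïve females, and 28.5 and 31.3 CPM in CCI females. Zfp365, which is expressed in neurons and encodes a partner of the scaffold protein Disc1, was 58.1 and 58.2 CPM in naïve males, 62.9 and 65.0 CPM in CCI males, 71.5 and 66.5 CPM in naïve females, and 55.2 and 57.0 CPM in CCI females. For Zfp385b the CCI males lay above all other libraries, and for Zfp365 the naïve females did. Zfp266, the member that collected the most reads, was lower after CCI in males, like most members. Its log2FC was -0.36 in males and 0.02 in females. Its naïve males were at 150.0 and 140.9 CPM, its CCI males at 119.6 and 105.7 CPM, its naïve females at 117.9 and 117.0 CPM, and its CCI females at 118.3 and 122.1 CPM.

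**Figure D4:**
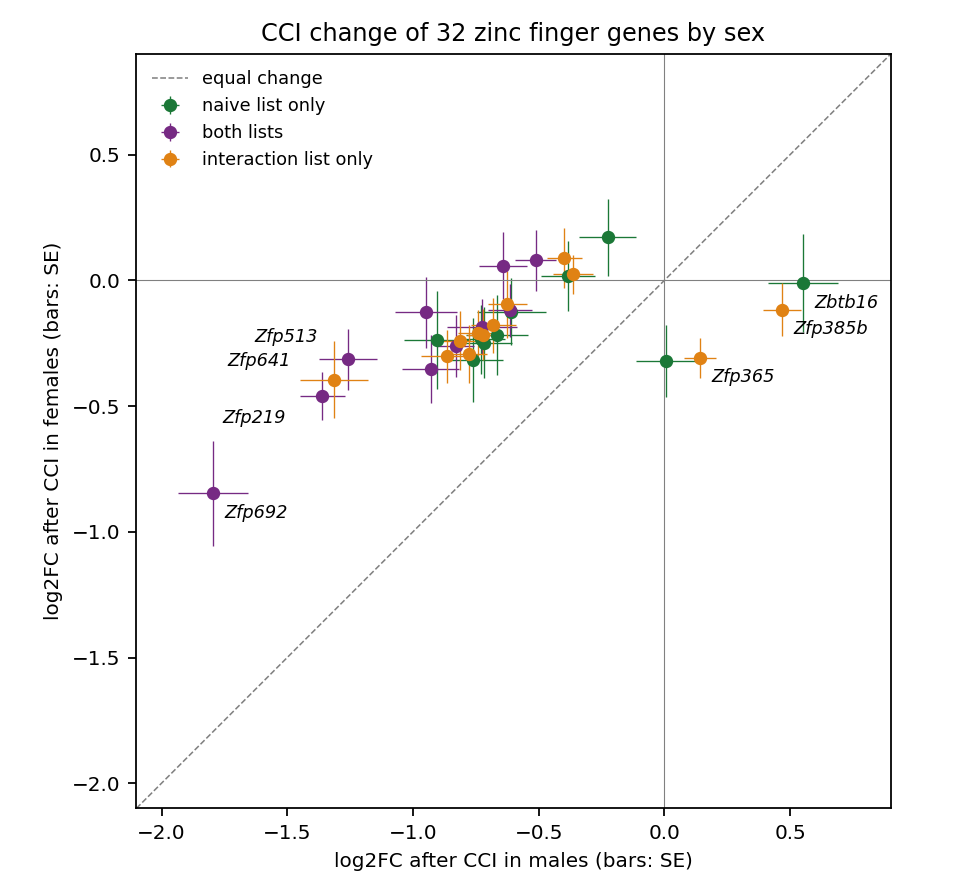
The log2FC after CCI in males (horizontal) is plotted against that in females (vertical) for the 32 zinc finger genes, with SE bars, coloured by the study list that held the symbol. Of these, 28 points lie above the line of equal change, from Zfp692 at -1.80 in males and -0.85 in females upwards, and 4 lie below it.

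The naïve lists compared naïve rats only, so the sexes could be tested in the 4 CCI libraries for the 10 members found there alone. Even for these, absence from the interaction list depends on the CCI rats. The other 10 of the 20 members also stand in the interaction list, which used the CCI libraries, so their values are a description. None of the 20 was called between CCI females and CCI males, where 1.06% of all genes were called. DESeq2 called none either, where 226 of the 16988 genes were called higher and 168 lower. With edgeR an unadjusted p under 0.05 was reached by 1 of the 10 members of the naïve lists alone, Zbtb16, against 18.3% of all genes. Zbtb16 had a log2FC of 0.70 (SE 0.186, 95% interval 0.25 to 1.16, adjusted p = 0.140 by edgeR), in the direction seen in naïve rats. Zfp142, which stands in both kinds of list, had -0.20 (SE 0.0696, 95% interval -0.37 to -0.03), given as a description. Zfp472, the other gene higher in naïve females, was at 0.23, with a 95% interval from -0.11 to 0.58.

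Of the 18 genes listed as higher in naïve males, 13 had a log2FC below 0 between the CCI sexes and 5 above 0, from -0.32 (Zfp692) to 0.20 (Zfp513). Apart from that of Zfp142 their intervals included 0, and those of Zbtb49, from -0.46 to 0.43, and Klf13, from -0.44 to 0.28, allowed a difference of either sign.

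**Figure D5:**
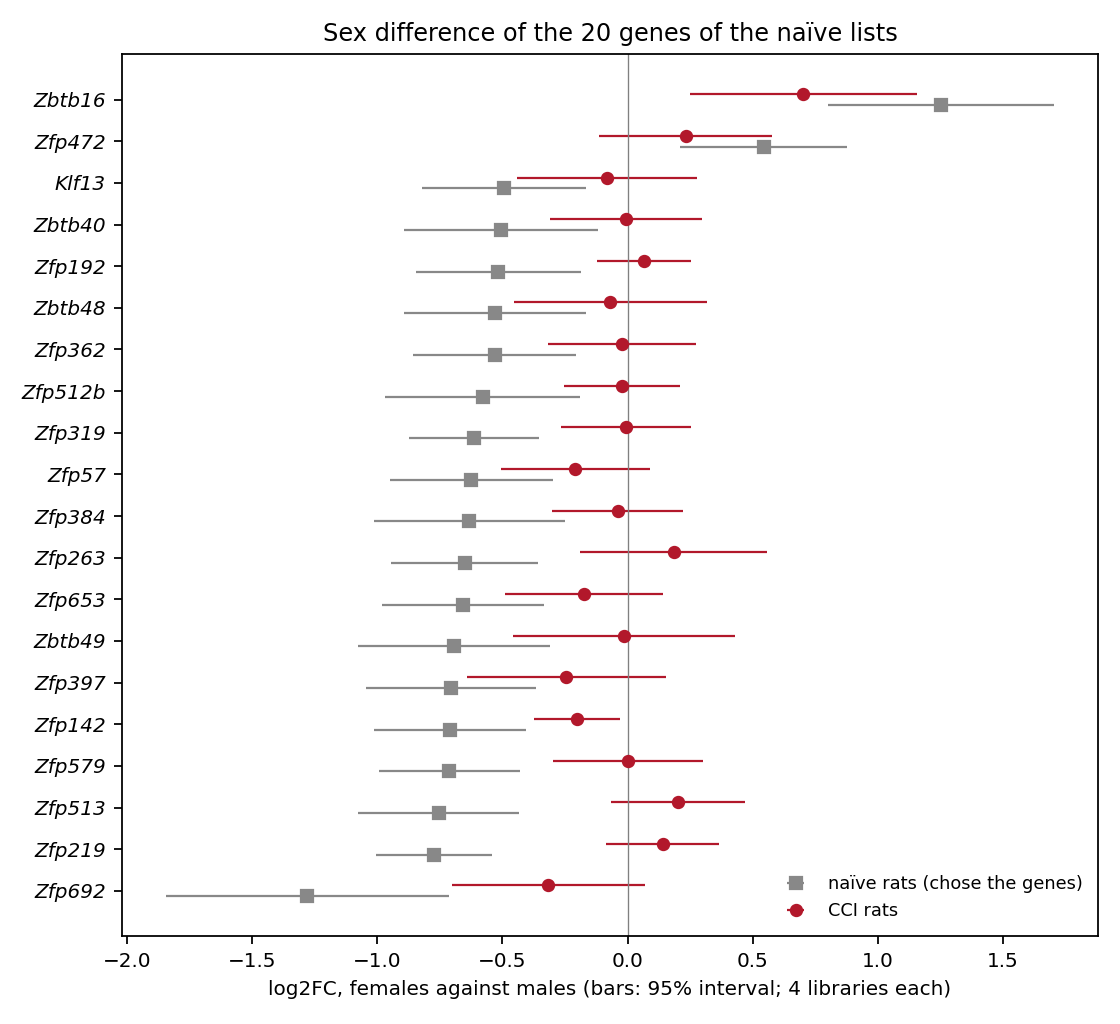
For the 20 genes found in the naïve lists, the log2FC of females against males is shown with its 95% interval in naïve rats (grey squares, the values that chose the genes) and in CCI rats (red circles), from 4 libraries each. In CCI rats the intervals of Zbtb16, at 0.70, and Zfp142, at -0.20, do not reach 0, and the 18 genes lower in naïve females lie between -0.32 and 0.20.

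By likeness over the 8 libraries, Zfp692 was nearest to ENSRNOG00000004521, Leng8 and ENSRNOG00000006600, with Pearson's r of 0.999, 0.999 and 0.998 for log2 CPM. Leng8 is among the intron-retaining transcripts, and 16 other members had an r above 0.9 with Zfp692. Zbtb16 had no member that close, and its nearest genes were 3 identifiers without a symbol at 0.962 to 0.957. Over the 496 pairs of members the median r was 0.82, with 155 pairs above 0.9 and 108 below 0. These points share 8 libraries, of which the naïve males stand apart.

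Related genes outside the symbol pattern were few in the lists. Of 40 other DNA-binding zinc finger factors, of the type called C2H2, 9 had a symbol. After CCI over both sexes 6 of these were called lower, where 9.29% of all genes were. Their median log2FC was -0.68. Gli1, which relays hedgehog signals, had the largest at -1.29 (SE 0.127, adjusted p = 0.000403, edgeR), followed by Mzf1 at -0.99 and Bcl6b at -0.97. Egr3, an early response gene, was at -0.68, and Rest, a repressor of neuronal genes, was not called at -0.15. Of 16 partners through which KRAB proteins silence chromatin, Setdb1 and Mta2 had a symbol, with -0.47 and -0.40, and neither was called. None of 9 BTB partners had a symbol. In the list of intron-retaining transcripts 16 of 24 were called lower, with a median of -0.61, and in the Schwann cell list 6 of 7, with a median of -0.999. Of the sensory neuron genes 2 of 6 were called higher and none lower. Pvalb among them was at -0.39, and in females alone it was called lower, at -0.84. These lists too consist of genes that the study picked on these libraries, which is not independent evidence of their direction.

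Promoter sequences were compared because most of the members moved together across the libraries. RefSeq (GRCr8) matched 31 members by symbol and 1, Zfp192, by its synonym Zkscan8, and 23 had a promoter of 300 bases, from 250 before to 50 after the start. No entry was found for Klf13, Zbtb16, Zfp111, Zfp219, Zfp362, Zfp395, Zfp512b, Zfp608 and Zfp703. The promoters of 4 of the called members are shown, chosen as the largest changes with an entry. Capitals mark a GC box (GGGCGG) or an ETS site (CCGGAAGT) on either strand, and overlapping matches run together. The regions are chr10:42988696-42988995 on the plus strand for Zfp692, chr7:131323642-131323941 on the minus strand for Zfp641, chr6:30893903-30894202 on the plus strand for Zfp513, and chr4:159496479-159496778 on the plus strand for Zfp384, all 5′ to 3′ along the gene.
Zfp692: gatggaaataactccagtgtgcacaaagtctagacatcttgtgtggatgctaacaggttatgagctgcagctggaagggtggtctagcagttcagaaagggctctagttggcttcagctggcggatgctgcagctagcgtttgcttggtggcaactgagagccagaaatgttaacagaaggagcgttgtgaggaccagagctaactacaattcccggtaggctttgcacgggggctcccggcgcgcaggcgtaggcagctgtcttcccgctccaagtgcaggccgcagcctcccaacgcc
Zfp641: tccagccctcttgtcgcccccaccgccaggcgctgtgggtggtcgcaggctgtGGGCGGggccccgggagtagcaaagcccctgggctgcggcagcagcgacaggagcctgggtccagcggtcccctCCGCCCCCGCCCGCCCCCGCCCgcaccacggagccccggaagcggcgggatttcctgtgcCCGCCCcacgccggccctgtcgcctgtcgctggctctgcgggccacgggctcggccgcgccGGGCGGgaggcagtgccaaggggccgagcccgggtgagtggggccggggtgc
Zfp513: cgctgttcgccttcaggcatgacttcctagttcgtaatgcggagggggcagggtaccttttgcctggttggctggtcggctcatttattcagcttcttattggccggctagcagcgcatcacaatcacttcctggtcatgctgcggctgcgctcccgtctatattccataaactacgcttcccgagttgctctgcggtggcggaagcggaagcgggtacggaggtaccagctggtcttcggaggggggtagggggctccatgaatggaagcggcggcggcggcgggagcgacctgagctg
Zfp384: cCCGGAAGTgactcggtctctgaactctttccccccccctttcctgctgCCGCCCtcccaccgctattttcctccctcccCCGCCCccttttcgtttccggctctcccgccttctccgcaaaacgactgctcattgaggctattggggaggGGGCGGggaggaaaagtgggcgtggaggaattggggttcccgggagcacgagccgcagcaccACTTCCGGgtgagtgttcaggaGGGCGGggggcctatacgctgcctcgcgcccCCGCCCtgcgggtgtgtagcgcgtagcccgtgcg

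The 4 promoters differed in these motifs. The averaged log2FC of their genes ran from -1.32 for Zfp692 to -0.64 for Zfp384, and a link to the motifs was not tested. Zfp641 held 7 GC boxes and Zfp384 held 5 GC boxes and 2 ETS sites, while neither motif was found in these windows of Zfp692 and Zfp513. A GC box was present in 13 of the 23 members and in 6 of the 10 called members with a promoter, against 34.9% of 27457 promoters of all genes. The ETS site was present in 5 of 23 and 4 of 10, against 4.01%. The cyclic AMP element (TGACGTCA) was present in 1 of 23, against 1.91%, the E-box (CACGTG) in 3, against 6.65%, and CCAAT in 11, against 37.7%. The members' promoters had a median GC content of 61.3%, against 52.3% for all, and a median of 22 CpG dinucleotides against 7. A match is a description of letters and not of a bound site, and the GC content of the members bears on how often such motifs occur. The promoters of all genes were not limited to genes with reads in these libraries, while every member had passed a count rule.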

How the data were processed

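The submitters deposited 1 table of read counts per Ensembl gene (rn6) for 8 poly(A) libraries, which the authors made with HISAT2 (CASAVA 1.8.2 for base calls, per the labels), removal of ribosomal reads and featureCounts, without normalization or batch correction. Sequencing was in 2 batches. The batch of a library was not given in the sources used here, so batch and group cannot be told apart.

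Counts were analysed in R 4.3.3 with edgeR 4.0.16 (filterByExpr with a minimum count of 10 and a minimum total of 15, TMM, quasi-likelihood test) and DESeq2 1.42.0 as an alternative. Log2 CPM used a prior count of 2. P-values were Benjamini-Hochberg adjusted over 16988 genes. Genes were called at an adjusted p under 0.05 with, except for the interaction, an absolute log2FC above 0.5. The SE is the log2FC divided by the root of F. Scripts were tested on simulated data.

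Members, lists and tests were chosen with earlier results of these data known. All members were named. Levels per library were given for the 8 largest calls, the 3 largest per list, the genes with most and fewest reads, Klf13 and the Zbtb genes. Zfp365, Zfp385b and Zfp472 were added after their values were seen. The CCI sexes were compared for all 20 genes of the naïve lists, not only the 10 planned, because absence from the interaction list depends on CCI libraries. For the 10 genes in both kinds of list the values are a description.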

Additional observations from a re-analysis of the deposited data

Results flagged for a closer look

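The CCI response was singled out in 6 zinc finger genes, by a test of the difference between the sexes in 2 and by opposite directions in 4. The test of the difference itself, the female minus the male log2FC over all 8 libraries with edgeR, was passed by Zfp219 at 0.91 and Zfp513 at 0.96. Both stand in the study's list drawn from that contrast, so these values describe the choice. In 4 other members both CCI rats of one sex lay above both naïve rats of that sex and both CCI rats of the other sex lay below, and this difference was not called by the test. The female minus male log2FC was 0.40 for Zfp266, 0.61 for Zfp319, -0.44 for Zfp365 and 0.71 for Zfp579. As description, Zfp266, Zfp319 and Zfp579 had lower values after CCI in males and higher ones in females, and Zfp365 the reverse. All 4 are in the interaction list, which favours such an order, and its share over all genes was not counted. The gap between naïve and CCI females was narrow in Zfp266, at 117.9 against 118.3 CPM, and in Zfp579, at 7.48 against 7.57 CPM.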

How the results depend on the processing

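Called members of the comparison averaged over the sexes kept their direction under all 15 alternatives, and Zbtb49, Zfp111, Zfp219, Zfp384, Zfp513, Zfp641, Zfp692 and Zfp775 also kept their call. The number called lower was 25 without a log2FC threshold, against 19.7% of all genes. It changed when 1 library was left out, and the share over all genes was not counted there. Klf13, which was not called, ran from -0.089 to 0.034 with a library left out and was above 0 without CCI male replicate 1 (0.023), naïve female replicate 2 (0.025) or CCI female replicate 1 (0.034). No call between the CCI sexes appeared under any alternative.

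The described contrasts moved more. Between the naïve sexes DESeq2 and a fit over all 8 libraries each called 2 higher and 15 lower in females, no filter on low counts gave 1 and 4, and leaving out a library gave 0 to 3 lower. In males the 1 gene called higher became 0 with DESeq2, with no filter or in the fit over 8 libraries, 2 without a threshold and 0 to 1 with a library left out, and the genes called lower then ran from 0 to 24. In females the 1 called lower became 2 without a threshold, 0 in the fit over 8 libraries and 0 to 1 with a library left out. The interaction called 17 higher and 2 lower with DESeq2, 1 higher with its size factors in edgeR, 7 and 2 with no filter, 5 higher with at least 10 counts in every library, and 0 to 6 higher and 0 to 1 lower with a library left out. Except for DESeq2, the calls over all genes under these settings were not counted. The cause was not tested.

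Replicate numbers were not taken to pair the samples, since they did not do so in every pair of groups. The correlation of replicate differences was 0.73 between naïve and CCI males, 0.13 or 0.14 between naïve females and either male group, and from -0.02 to 0.04 for the rest. With the replicate number as a block 12 members were again called lower over both sexes and every other count of called members was the same as without it. In the fit over both sexes the block is a single replicate effect shared by all groups, so a pairing in males alone was not modelled there. The count columns of naïve male 1 and CCI male 1 carry an extra letter whose meaning is not given. Genes of the symbol pattern outside the study's lists were not run under any alternative, since their identifiers could not be named here. Where a left-out library leaves 1 rat in a group, that rat is assumed to vary like the other groups.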
